A study of Homo sapiens with 11 samples.

Results

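The complement components and regulators described here are C1R, C1S, C3, CFB, SERPING1, CD46, CD55 and CD59, 8 of the 40460 genes in the deposited table. They were chosen by function, as rows whose Ensembl identifier maps to these symbols, and with earlier results of these data already known. Their own values in every comparison are therefore given as a description with no p-value, and the number that passed a test is no independent evidence. All 8 were found, and 6 of them had values high enough to be tested. CFB and SERPING1 lay under the minimum for testing, a log2 value of 3.32 in at least 2 libraries.

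The cells were hTert-HME1, a non-tumour human breast epithelial line kept dividing by the catalytic subunit of telomerase, so all results come from 1 line, at passage 6. They received siRNA by lipid transfection and were kept in mammary epithelial growth medium with or without EGF, the epidermal growth factor that stimulates its receptor on these cells. Ribosomal RNA was removed from total RNA before sequencing, and 11 libraries fall into 4 groups. These are BRCA2 siRNA without EGF (-EGF, replicates A, B and C), BRCA2 siRNA with EGF (+EGF, A, B and C), control siRNA without EGF (A and C only) and control siRNA with EGF (A, B and C). All 4 groups were transfected, and the labels name 1 siRNA for each target, BRCA2-1 and control-2. The labels call the replicates biological without saying what they come from, so the p-values measure the spread between these libraries.

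Complement is a cascade of plasma and tissue proteins that marks and lyses foreign or damaged cells. In the classical pathway the proteases C1r and C1s act in sequence inside the C1 complex, and in the alternative pathway factor B supplies the protease, so that C3, shared by all pathways, is cleaved and its fragment C3b is laid on surfaces. C1 inhibitor stops C1r and C1s, while the membrane proteins CD46, CD55 and CD59 shield the body's own cells. The liver makes most plasma complement, and epithelial cells make some components locally.

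The labels were first checked against BRCA2 itself. BRCA2 had log2 values of 12.48, 12.27 and 12.11 with BRCA2 siRNA and 11.44 and 11.65 with control siRNA in medium without EGF. With EGF it had 12.43, 12.37 and 12.40 with BRCA2 siRNA and 12.45, 12.13 and 12.48 with control siRNA. Its mRNA was thus not lower in any library labelled BRCA2 siRNA than in every control library of the same medium. Without EGF it was higher with BRCA2 siRNA, by 0.74 ± 0.13 (adjusted p = 0.00397, limma; 0.64 and adjusted p = 0.0655 without control siRNA -EGF replicate A), and with EGF the difference was 0.05 ± 0.12. All directions below refer to libraries labelled BRCA2 siRNA. All 8 basal epithelial markers were tested, with a log2 summed level between 18.84 and 19.81 over all libraries, while 5 of 8 luminal markers were tested and KRT19, EPCAM and ELF5 lay under the minimum. The replicate B libraries with EGF stood apart for some genes, and results that rest on them are also given without them. In every gene the deposited mean of the A libraries equalled that of the B and C libraries, so values of A and of B or C were compared within letters as well.

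In medium without EGF the mRNAs of the soluble components C1R, C1S and C3 were several-fold higher than with EGF, and that of the lysis inhibitor CD59 was lower, with either siRNA. Without EGF, libraries labelled BRCA2 siRNA had less C1R, C1S and C3 and more CD59 than control libraries. With EGF none of the 6 tested genes passed the test between the siRNAs. The plot of values by library shows all 8 genes.

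**Figure D1:**
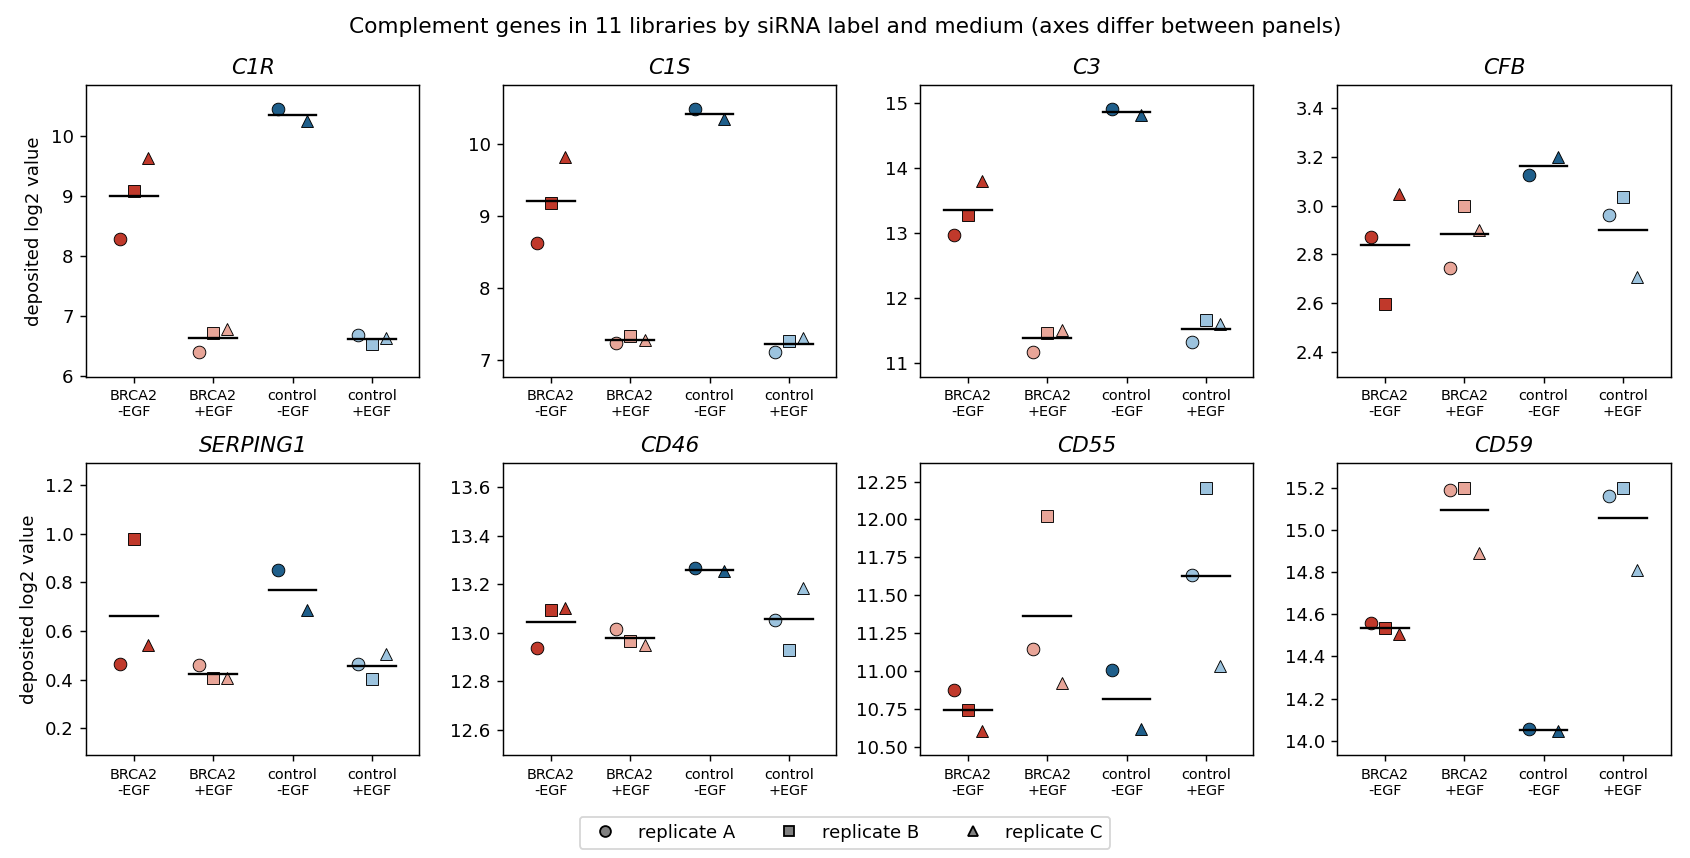
Deposited log2 value (y axis, scaled separately in each panel) of each complement gene in 11 libraries, by siRNA label and medium (x axis); symbols give the replicate letter and bars the group mean. C1R, C1S and C3 are high without EGF and highest with control siRNA, CD59 has the opposite order, and CFB and SERPING1 lie at or below 3.20 in every library.

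C1R encodes the protease that is activated first in the C1 complex and then cleaves C1s. C1R had log2 values of 8.28, 9.09 and 9.64 with BRCA2 siRNA without EGF, against 6.40, 6.73 and 6.79 with BRCA2 siRNA and EGF. Control siRNA libraries had 10.45 and 10.26 without EGF, against 6.68, 6.54 and 6.63 with EGF. Every library without EGF was above every library with EGF, and within the medium without EGF both control libraries were above all 3 BRCA2 siRNA libraries. The withdrawal difference, medium without EGF minus medium with EGF, was 2.36 ± 0.26 with BRCA2 siRNA (5.15-fold) and 3.74 ± 0.30 with control siRNA (13.3-fold), where ± gives the moderated standard error on the log2 scale. Between libraries of the same replicate letter it was 1.88, 2.36 and 2.86 with BRCA2 siRNA and 3.77 and 3.62 with control siRNA, so all 5 differences had the same sign. BRCA2 siRNA minus control siRNA was -1.35 ± 0.30 without EGF and 0.02 ± 0.26 with EGF. The difference without EGF was -2.17 between the A libraries and -0.61 between the C libraries, the same direction at very different sizes.

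The promoter of C1R is shown because C1R had the largest of the withdrawal differences among the 8 genes. The RefSeq promoter windows used here (GRCh38.p14 build) run from 250 bases before to 50 bases after a gene start. They were available for 5 of the 8 genes (C1R, CFB, CD46, CD55 and CD59), and of several for a gene only 1 was read. C1S, C3 and SERPING1 are named only. The C1R window lies at chr12:7092396-7092695 on the minus strand and is written 5′ to 3′.
C1R: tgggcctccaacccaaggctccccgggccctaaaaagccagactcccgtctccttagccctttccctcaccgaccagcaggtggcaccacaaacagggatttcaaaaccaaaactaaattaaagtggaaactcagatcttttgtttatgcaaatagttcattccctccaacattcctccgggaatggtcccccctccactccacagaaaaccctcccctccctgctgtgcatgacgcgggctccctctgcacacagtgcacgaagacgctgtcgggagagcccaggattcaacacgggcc
Each window was searched on both strands for 3 motifs of factors that act downstream of cytokines. These were the STAT motif TTCNNNGAA, which reads the same on both strands and occurs in 7.66% of 35116 RefSeq windows of the same length, the interferon-stimulated response element (3.57%) and the NF-kB site (1.91%). None of these patterns is in the windows of C1R, CD46 and CD55.

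C1S encodes the protease that C1r activates and that cleaves C4 and C2. C1S had 8.63, 9.18 and 9.83 with BRCA2 siRNA without EGF, against 7.23, 7.33 and 7.28 with BRCA2 siRNA and EGF. Control siRNA libraries had 10.49 and 10.36 without EGF, against 7.11, 7.27 and 7.31 with EGF. As for C1R, the media did not overlap with either siRNA, and the siRNAs did not overlap in medium without EGF. The withdrawal difference was 1.93 ± 0.23 with BRCA2 siRNA (3.82-fold) and 3.20 ± 0.25 with control siRNA (9.16-fold). BRCA2 siRNA minus control siRNA was -1.21 ± 0.25 without EGF and 0.06 ± 0.23 with EGF. Within letters the difference without EGF was -1.86 for A and -0.53 for C. C1R and C1S are neighbours on chromosome 12 with 0 genes between them and lie on opposite strands. C1R overlaps C1RL on the same strand, and C1S overlaps EMG1 on the same strand and LPCAT3 on the other, so reads in the shared stretches cannot be assigned with certainty, and the counting rule is not given in the sources used here.

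C3 encodes the central component on which all activation pathways converge. C3 had 12.97, 13.28 and 13.80 with BRCA2 siRNA without EGF, against 11.16, 11.46 and 11.51 with BRCA2 siRNA and EGF. In control siRNA libraries it had 14.90 and 14.82 without EGF, against 11.33, 11.66 and 11.60 with EGF. Neither the media nor, without EGF, the siRNAs overlapped. The withdrawal difference was 1.97 ± 0.18 with BRCA2 siRNA (3.92-fold) and 3.33 ± 0.20 with control siRNA (10.1-fold). BRCA2 siRNA minus control siRNA was -1.51 ± 0.20 without EGF, with -1.94 between the A libraries and -1.02 between the C libraries, and -0.15 ± 0.18 with EGF. Among all tested genes, the mean of C3 was at the 96.3rd percentile with BRCA2 siRNA and the 99.2nd with control siRNA without EGF, against the 80.2nd and the 81.8th with EGF, on a scale that is not per length. C3 overlaps GPR108 on the same strand.

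CFB encodes factor B, the protease subunit of the alternative pathway convertase. Its log2 values were 2.87, 2.59 and 3.05 with BRCA2 siRNA without EGF, against 2.75, 3.00 and 2.90 with BRCA2 siRNA and EGF. Control siRNA libraries had 3.13 and 3.20 without EGF, against 2.96, 3.04 and 2.71 with EGF. The highest of these values, 3.20, lies just under the minimum of 3.32, so CFB was not tested. Its withdrawal difference was -0.04 with BRCA2 siRNA and 0.26 with control siRNA, with a pooled SD of 0.17 between libraries of a group. The media overlapped with BRCA2 siRNA but not with control siRNA. BRCA2 siRNA minus control siRNA was -0.32 without EGF, where the groups did not overlap, and -0.02 with EGF, where they did. The annotated CFB overlaps C2 on the same strand, so reads in the shared stretch cannot be assigned with certainty. The CFB promoter is shown because it holds motif matches, in contrast to C1R. It lies at chr6:31945845-31946144 on the plus strand, with the matches in capitals.
CFB: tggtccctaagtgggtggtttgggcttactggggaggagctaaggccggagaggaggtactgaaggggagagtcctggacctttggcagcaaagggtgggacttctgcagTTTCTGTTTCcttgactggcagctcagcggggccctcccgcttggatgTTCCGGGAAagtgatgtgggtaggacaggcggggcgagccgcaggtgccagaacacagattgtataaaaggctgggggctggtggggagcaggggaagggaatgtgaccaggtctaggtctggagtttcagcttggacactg
The first match is the interferon-stimulated response element read on the reverse strand, at positions -140 to -131 from the start, and the second is the STAT motif, at positions -92 to -84. The matches do not overlap. A match of letters is a description of the sequence and not a measured binding site.

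SERPING1 encodes C1 inhibitor, the serpin that inactivates C1r and C1s. Its log2 values were 0.46, 0.98 and 0.54 with BRCA2 siRNA without EGF, against 0.46, 0.41 and 0.41 with BRCA2 siRNA and EGF. Control siRNA libraries had 0.85 and 0.69 without EGF, against 0.47, 0.40 and 0.50 with EGF. All 11 values lie under the minimum for testing and the depth is unknown, so a difference could not be assessed at this level. The withdrawal differences were 0.24 with BRCA2 siRNA and 0.31 with control siRNA, beside a pooled SD of 0.16. The media did not overlap with either siRNA, with BRCA2 siRNA by a margin of 0.006 between the A libraries. BRCA2 siRNA minus control siRNA was -0.11 without EGF and -0.03 with EGF, and the siRNA groups overlapped in both media.

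CD46 encodes the membrane cofactor with which factor I degrades C3b. CD46 had 12.94, 13.09 and 13.10 with BRCA2 siRNA without EGF, against 13.02, 12.97 and 12.95 with BRCA2 siRNA and EGF. In control siRNA libraries it had 13.27 and 13.25 without EGF, against 13.05, 12.93 and 13.18 with EGF. All 11 values lie in a narrow range, and only the control libraries without EGF stand above the others. The withdrawal difference was 0.07 ± 0.08 with BRCA2 siRNA and 0.20 ± 0.09 with control siRNA. Neither passed the threshold, but the difference with control siRNA passed after quantile normalization (0.48) and without control siRNA +EGF replicate C (0.27). BRCA2 siRNA minus control siRNA was -0.22 ± 0.09 without EGF, where the groups did not overlap, and -0.08 ± 0.08 with EGF, and neither passed. The difference without EGF passed after quantile normalization (-0.34) and in a fit of only the groups compared (-0.22).

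CD55 encodes decay-accelerating factor, which takes apart the convertases that cleave C3. CD55 had 10.87, 10.74 and 10.61 with BRCA2 siRNA without EGF, against 11.15, 12.03 and 10.92 with BRCA2 siRNA and EGF. Control siRNA libraries had 11.01 and 10.62 without EGF, against 11.63, 12.21 and 11.03 with EGF. The media did not overlap with either siRNA, but the libraries with EGF were widely spread, with replicate B the highest of both groups. The withdrawal difference was -0.62 ± 0.30 with BRCA2 siRNA and -0.81 ± 0.34 with control siRNA, and neither passed the threshold. Replicate B minus replicate C with EGF was 1.11 with BRCA2 siRNA and 1.18 with control siRNA. The same libraries differed in IL6, a cytokine of inflammation, by 2.38 with BRCA2 siRNA and 2.95 with control siRNA, and the part of this difference in CD55 was not tested. Without both replicate B libraries with EGF the CD55 withdrawal difference was -0.29 with BRCA2 siRNA, which did not pass, and -0.52 with control siRNA, which did. The difference with control siRNA also passed without the BRCA2 siRNA +EGF replicate B library alone (-0.81) and without the control siRNA +EGF replicate C library (-1.11).

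CD59 encodes the membrane protein that keeps C9 from completing the lytic pore. CD59 had 14.56, 14.53 and 14.50 with BRCA2 siRNA without EGF, against 15.19, 15.20 and 14.89 with BRCA2 siRNA and EGF. Control siRNA libraries had 14.05 and 14.05 without EGF, against 15.16, 15.20 and 14.81 with EGF. Every library without EGF was below every library with EGF, and without EGF both control libraries were below the BRCA2 siRNA libraries. The withdrawal difference was -0.56 ± 0.11 with BRCA2 siRNA and -1.01 ± 0.13 with control siRNA, a level 1.48-fold and 2.01-fold lower. Within letters it was -0.63, -0.67 and -0.39 with BRCA2 siRNA and -1.11 and -0.76 with control siRNA. BRCA2 siRNA minus control siRNA was 0.48 ± 0.13 without EGF, with 0.51 for A and 0.46 for C, and 0.04 ± 0.11 with EGF. The CD59 promoter, shown as that of the regulator whose mRNA fell, lies at chr11:33736430-33736729 on the minus strand.
CD59: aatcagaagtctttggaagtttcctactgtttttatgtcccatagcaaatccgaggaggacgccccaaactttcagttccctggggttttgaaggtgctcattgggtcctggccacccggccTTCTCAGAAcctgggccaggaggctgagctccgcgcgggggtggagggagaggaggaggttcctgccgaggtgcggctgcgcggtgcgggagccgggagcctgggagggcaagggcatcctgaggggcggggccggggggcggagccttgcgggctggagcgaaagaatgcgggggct
The capitals mark a STAT motif match at positions -128 to -120 from the start. CD59 and CFB both hold this motif, and of the pair only CD59 had values high enough to test.

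Over the fit to all 17945 tested genes, 4 of the 6 tested complement genes passed an adjusted p of 0.05 for EGF withdrawal with BRCA2 siRNA, where 27.1% of all tested genes passed. These were C1R, C1S and C3 (higher) and CD59 (lower). The same 4 genes passed in the same directions with control siRNA, where 50.8% of all genes passed. The groups with and without EGF did not overlap for 5 of 6 genes with BRCA2 siRNA, against 46.6% of all tested genes, and for 6 of 6 with control siRNA, against 66.5% of all tested genes. The median difference of the 6 genes was 1.00 with BRCA2 siRNA, where that of all tested genes was 0.0032, and 1.70 with control siRNA, where that of all genes was -0.0036. The 2 comparisons share no library, but both come from 1 fit with 1 estimate of spread per gene. The step that made the A mean equal that of B and C also ties all libraries together, so the comparisons are not independent. In bulk RNA, a change in the share of cells that make a transcript and a change in transcript per cell cannot be told apart.

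**Figure D2:**
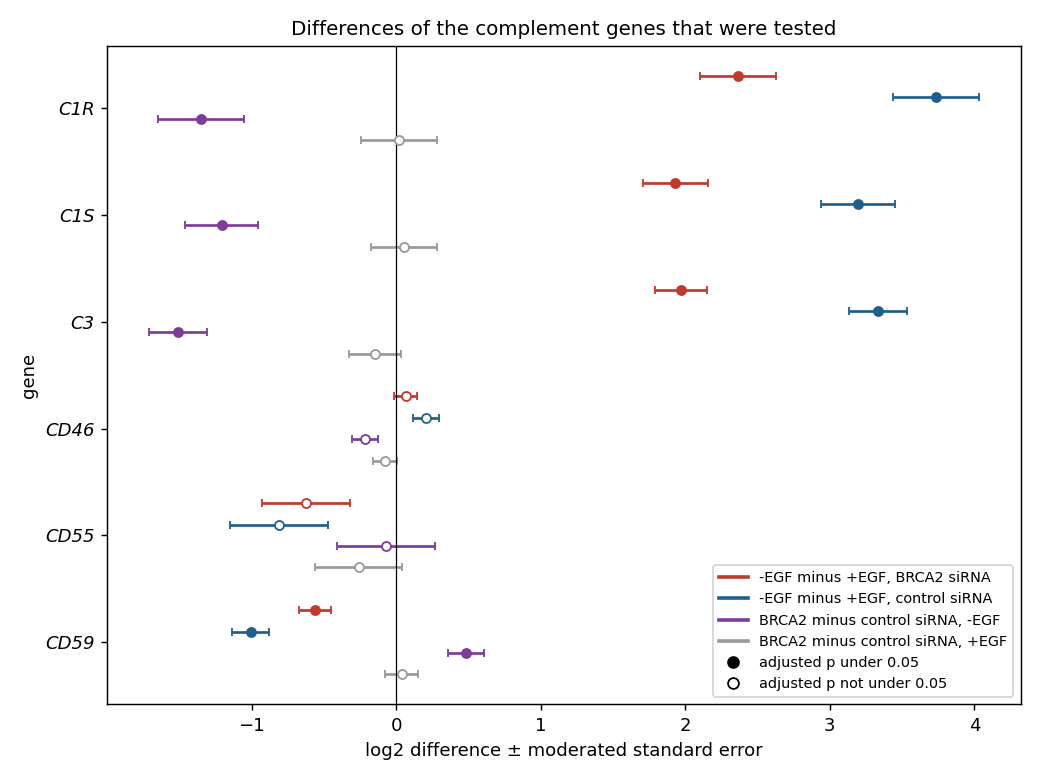
Log2 difference ± moderated standard error (x axis) of the 6 tested complement genes (y axis) for EGF withdrawal with each siRNA and for BRCA2 siRNA minus control siRNA in each medium; filled points passed an adjusted p of 0.05 over all tested genes. C1R, C1S and C3 lie between 1.93 and 3.74 for withdrawal, CD59 lies at -0.56 and -1.01, and all points for the siRNAs with EGF are open.

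Between the siRNAs in medium without EGF, 4 of 6 genes passed, C1R, C1S and C3 lower and CD59 higher with BRCA2 siRNA, where 20.5% of all genes passed. The groups did not overlap for 5 of the 6, and for 62.3% of all tested genes. This comparison shares the control libraries without EGF with the withdrawal comparison above and rests on 2 of them. Without control siRNA -EGF replicate A, the differences of C1R (-1.25), C1S (-1.14) and CD59 (0.49) no longer passed, and without control siRNA -EGF replicate C those of C1R (-1.45), C1S (-1.28) and CD59 (0.48) did not. CD59 also missed the threshold without BRCA2 siRNA -EGF replicate A (0.47) or B (0.48), while C3 passed whichever library was left out. With the B and C libraries alone, which leave 1 control library without EGF, C3 was at -1.28, C1R at -0.89, C1S at -0.85 and CD59 at 0.47. In each fit that leaves 1 control library without EGF, the share of all tested genes called fell as well. A miss there is therefore not particular to these genes. In medium with EGF 0 of 6 passed in limma, where 0.00557% of all genes (1 gene) passed. Of the 6, 0 had an unadjusted p under 0.05, against 508 of all 17945 tested genes. With EGF the siRNA groups overlapped for all 6 genes, and they did not overlap for 5.88% of all tested genes.

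The interaction, the withdrawal difference under BRCA2 siRNA less that under control siRNA, asks whether the media differed by unequal amounts under the siRNAs. It was -1.37 ± 0.40 for C1R, -1.26 ± 0.34 for C1S, -1.36 ± 0.27 for C3, -0.14 ± 0.12 for CD46, 0.19 ± 0.45 for CD55 and 0.44 ± 0.17 for CD59. For CFB and SERPING1, which were not tested, it was -0.31 and -0.07. For C1R, C1S, C3 and CD59 the sign is opposite to that of the withdrawal difference itself. Only C3 passed the threshold, where 3.32% of all genes passed. An unadjusted p under 0.05 was found for 4 of 6, and for 3981 of all 17945 tested genes. C3 did not pass without any 1 of 6 libraries, with values of -1.26 (control siRNA +EGF A), -1.32 (control siRNA -EGF A), -1.17 (BRCA2 siRNA -EGF A), -1.33 (BRCA2 siRNA -EGF B), -1.30 (BRCA2 siRNA +EGF C) and -1.40 (control siRNA -EGF C). Among all tested genes, 0 passed without control siRNA +EGF A or BRCA2 siRNA +EGF C. Only 1 gene passed without BRCA2 siRNA -EGF B, and 0.346% did without BRCA2 siRNA -EGF A. Other genes passed when a library was left out, C1R (-1.69) and C1S (-1.57) without BRCA2 siRNA -EGF C, where 5.8% of all genes passed. C1S (-1.30) and CD59 (0.57) passed without control siRNA +EGF C, where 8.95% of all genes did.

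The rest of the complement system was followed through 53 further genes, of which 49 were in the table and 16 were tested (C1QA, C1QB, C1QC and FCN2 were not analysed here). With BRCA2 siRNA, withdrawal of EGF changed 2 of the 16, where 27.1% of all tested genes passed. These were C1RL (0.52 ± 0.10, adjusted p = 0.0054), a protease related to C1r, and SUSD4 (-0.99 ± 0.20, adjusted p = 0.00515), a membrane complement inhibitor. With control siRNA 11 of 16 passed, 9 higher and 2 lower, where 50.8% of all tested genes passed. The median difference of the 16 was 0.11 with BRCA2 siRNA and 0.49 with control siRNA.

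CLU, the chaperone clusterin that binds the lytic complex, had 11.66 and 11.61 in control siRNA libraries without EGF, against 9.72, 9.91 and 9.76 with EGF. The CLU difference was 1.83 ± 0.17 (adjusted p = 2.27e-05), and with BRCA2 siRNA CLU had 9.74, 10.23 and 10.52 without EGF, against 9.84, 9.77 and 9.88 with EGF, which overlap. Of the cascade proteins, C1RL was higher by 0.90 ± 0.11 (adjusted p = 0.000108), C4B by 0.95 ± 0.25 (adjusted p = 0.00896), C4A by 0.84 ± 0.23 (adjusted p = 0.0107) and C5 by 0.44 ± 0.13 (adjusted p = 0.013). C4A and C4B are near-identical copies, so reads can be split between them and each value is uncertain. C9, which forms the pore that CD59 blocks, had values of 3.86 and 3.47 in control siRNA libraries without EGF, against 1.67, 2.12 and 2.11 with EGF, a difference of 1.70 ± 0.22. C9 reached the minimum through that group alone, so its differences are given here and below as a description with no p-value, although it counts in the totals. The receptor gene C5AR1 was higher by 0.83 ± 0.28 (adjusted p = 0.0274). SUSD4 (-1.55 ± 0.22, adjusted p = 0.000198) and CSMD3 (-0.79 ± 0.18, adjusted p = 0.00423), a large membrane protein with complement control domains, were lower. Of the 11, 6 passed whichever library was left out, among them C1RL, SUSD4, CLU and CSMD3. C4A (0.48) and C4B (0.56) missed the threshold without control siRNA -EGF replicate A and C5 (0.31) without control siRNA -EGF replicate C. C5AR1 missed it without control siRNA -EGF A (0.82), -EGF C (0.85) or +EGF C (0.67).

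**Figure D3:**
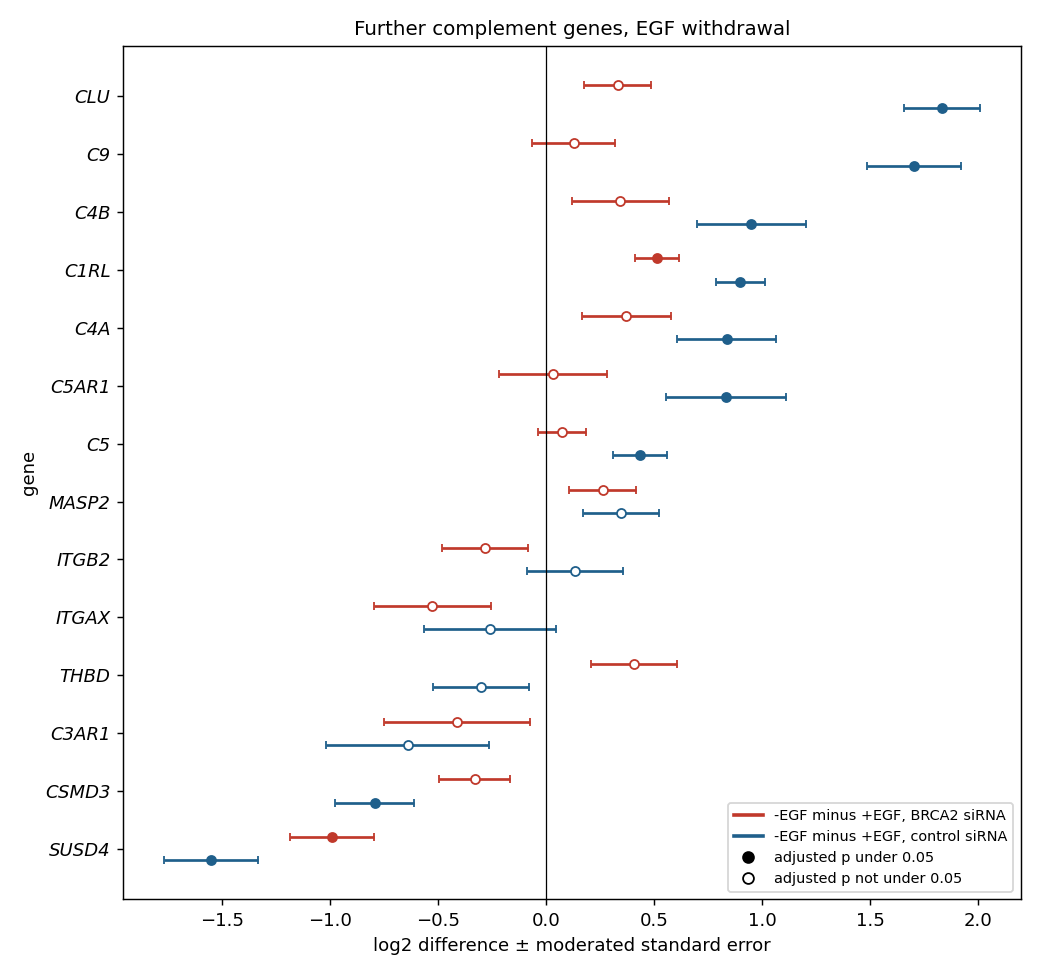
Log2 difference ± moderated standard error (x axis) of further complement genes (y axis) for EGF withdrawal with BRCA2 siRNA and with control siRNA; filled points passed an adjusted p of 0.05 over all tested genes. CLU and C9 lie at 1.83 and 1.70 with control siRNA, SUSD4 lies lowest with both siRNAs (-0.99 and -1.55), and C1RL and SUSD4 are the 2 filled points with BRCA2 siRNA.

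Between the siRNAs without EGF, 7 of the 16 passed, where 20.5% of all tested genes passed. CLU (-1.47 ± 0.17, adjusted p = 0.00141), C1RL (-0.61, adjusted p = 0.00564), C4B, C4A and C5AR1 were lower with BRCA2 siRNA, and THBD, thrombomodulin, a membrane protein of the coagulation system that also aids factor I, was higher (0.85 ± 0.22, adjusted p = 0.021). The C9 difference was -1.90 ± 0.22. CLU passed whichever library was left out. Without control siRNA -EGF replicate A, C1RL (-0.58), C4A (-0.48), C4B (-0.55) and C5AR1 (-0.92) did not pass. C4A (-0.71), C4B (-0.74), C5AR1 (-0.84) and THBD (0.89) did not without BRCA2 siRNA -EGF A, C4A (-0.89) without BRCA2 siRNA -EGF B, C5AR1 (-0.83) and THBD (0.76) without BRCA2 siRNA -EGF C, and C5AR1 (-0.96) and THBD (0.58) without control siRNA -EGF C. With EGF 0 of 16 differed in limma, and 1 had an unadjusted p under 0.05, against 508 of all 17945 tested genes. The interaction was -1.58 ± 0.29 for C9 and passed for CLU (-1.50 ± 0.23, adjusted p = 0.0232), where 3.32% of all tested genes passed. CLU missed it without control siRNA +EGF A (-1.46), control siRNA -EGF A (-1.48) or C (-1.53), BRCA2 siRNA -EGF B (-1.53) or BRCA2 siRNA +EGF C (-1.48).

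Cytokines, their signalling factors and acute-phase proteins that are known to accompany complement expression were followed through 38 genes, of which 27 were tested. With BRCA2 siRNA 4 of the 27 changed on withdrawal, where 27.1% of all tested genes passed. They were the acute-phase genes SAA1 (1.80 ± 0.20, adjusted p = 0.000513) and SAA2 (1.50 ± 0.29, adjusted p = 0.00449) and the interferon signalling factor STAT2 (0.56 ± 0.13, adjusted p = 0.00958) higher, and SOCS3, a feedback inhibitor of cytokine signalling, lower (-0.51 ± 0.13, adjusted p = 0.014). SOCS3 did not pass without BRCA2 siRNA +EGF A (-0.47) or BRCA2 siRNA -EGF C (-0.49). With control siRNA 13 of the 27 passed, 6 higher and 7 lower, a share close to the 50.8% of all tested genes. SAA1 averaged 12.71 ± 0.12 in control siRNA libraries without EGF (SD, n = 2), against 9.10 ± 0.16 with EGF (SD, n = 3), and was higher by 3.61 ± 0.22 (adjusted p = 7.05e-06). SAA2 was higher by 3.29 ± 0.32 (adjusted p = 2.47e-05) and STAT2 by 1.19 ± 0.14 (adjusted p = 6.72e-05), and SAA1 and SAA2 are near-identical copies that can share reads. SOCS3 (-0.90 ± 0.14, adjusted p = 0.000365), the transcription factor CEBPB (-0.99 ± 0.25, adjusted p = 0.00731) and IL6 (-2.80 ± 0.78, adjusted p = 0.0113) were lower. IL6 rests on libraries with EGF that differ widely, at 8.43, 9.05 and 6.10 in control siRNA libraries, and missed the threshold without control siRNA -EGF A (-2.70) or C (-2.89). Without the replicate B libraries with EGF the IL6 difference was -2.20 and passed. CEBPB missed it without control siRNA -EGF A (-0.93). SAA1, SAA2, STAT2 and SOCS3, 4 of the 13, passed whichever library was left out. The median difference of the 27 was -0.16 with BRCA2 siRNA and -0.25 with control siRNA, opposite in sign to SAA1 and SAA2.

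Without EGF, 3 of the 27 differed between the siRNAs, where 20.5% of all tested genes passed. They were SAA1 (-1.50 ± 0.22, adjusted p = 0.00238), STAT2 (-0.78 ± 0.14, adjusted p = 0.00459) and SAA2 (-1.39 ± 0.32, adjusted p = 0.0122), all lower with BRCA2 siRNA, and of these SAA1 passed whichever library was left out. STAT2 (-0.72) and SAA2 (-1.44) did not pass without control siRNA -EGF A, nor SAA2 (-1.34) without control siRNA -EGF C. With EGF 0 differed in limma, and 0 had an unadjusted p under 0.05, against 508 of all 17945 tested genes. The interaction passed for SAA1 (-1.81 ± 0.30, adjusted p = 0.0235) and SAA2 (-1.79 ± 0.43, adjusted p = 0.0473). These were 2 of the 27, where 3.32% of all tested genes passed. SAA1 missed it without any 1 of 5 libraries, control siRNA +EGF A (-1.76), control siRNA -EGF A (-1.90) or C (-1.73), BRCA2 siRNA -EGF B (-1.81) or BRCA2 siRNA +EGF C (-1.67). SAA2 missed it without any 1 of 9 libraries, all but control siRNA +EGF C and BRCA2 siRNA -EGF C, with values from -1.84 to -1.49.

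Markers of other cell types that make complement were read in the same libraries. Of 9 fibroblast markers 8 were tested (COL1A2 was not). On withdrawal 3 were higher and 1 lower with BRCA2 siRNA, where 27.1% of all tested genes passed. With control siRNA 6 were higher and 1 lower, where 50.8% of all tested genes passed. Their log2 summed level was 12.24 to 12.72 with BRCA2 siRNA without EGF, 11.51 to 11.60 with BRCA2 siRNA and EGF, 13.26 to 13.37 with control siRNA without EGF and 11.44 to 11.73 with control siRNA and EGF. As for C1R, C1S and C3, control siRNA without EGF was highest, BRCA2 siRNA without EGF came next and the groups with EGF overlapped, and the part of this in their differences was not tested. The basal epithelial sum had the same order, with 19.35 to 19.53, 18.98 to 19.16, 19.65 to 19.81 and 18.84 to 19.15 in the same 4 groups. Of the 8 basal markers, 3 were higher and 1 lower on withdrawal with BRCA2 siRNA (27.1% of all tested genes passed). With control siRNA 4 were higher and 1 lower (50.8%). Of the leukocyte markers in the table, 2 of 7 were tested and 0 passed in either withdrawal comparison, with a summed level of 5.49 to 6.02 over all libraries. The hepatocyte markers lay under the minimum, 7 of 7. Of 5 endothelial markers 2 were tested, and on withdrawal with control siRNA KDR was higher (2.51 ± 0.36, adjusted p = 0.000223) and TEK lower (-1.13 ± 0.25, adjusted p = 0.00369), while VWF, CDH5 and CLDN5 lay under the minimum. The endothelial sum was 8.17 to 8.78, 7.73 to 8.50, 10.18 to 10.42 and 7.65 to 8.66 in the same 4 groups, highest like C3 in control siRNA libraries without EGF. The luminal sum was 12.03 to 12.17, 12.49 to 12.54, 12.21 to 12.24 and 12.37 to 12.62, lower without EGF with either siRNA. On withdrawal 1 of 5 luminal markers was higher and 2 lower with BRCA2 siRNA, where 27.1% of all tested genes passed. With control siRNA 3 were higher and 1 lower, where 50.8% of all tested genes passed. The part of these sums in the complement differences was not tested.

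For each gene the 3 most similar profiles were sought among 15680 tested genes with a symbol, the 8 genes themselves left out, by Pearson's r over the 11 libraries. These coefficients are a description, since the libraries fall into groups and share their processing. C1R was closest to the collagen gene COL1A1 (r = 0.998), the chemokine receptor gene ACKR3 (0.996) and the lipoprotein gene APOE (0.995), beside r = 0.997 between C1R and C1S themselves. ACKR3 was also among the 3 closest to C1S (0.997, beside ZNF605 and APOE, both 0.997) and to C3 (0.998, beside DST at 0.999 and SEMA5B at 0.998). CD59 was closest to GRPEL1 (0.998), XRN2 (0.997) and PPID (0.997), and CD55 to CPEB4 (0.988), GPCPD1 (0.986) and POLR3C (0.984). CD46 was closest to PLBD1 (0.971), ARL15 (0.937) and GPR155 (0.927). Of the genes under the minimum, CFB was closest to EXD3 (0.928), ZNF316 (0.919) and ZNF717 (0.899). SERPING1 was closest to PCDH17 (0.966), RN7SL362P (0.94) and NDUFV2-AS1 (0.936).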

How the data were processed

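Total RNA from 11 libraries of 1 cell line was depleted of ribosomal RNA and sequenced, per the labels' protocols. The authors deposited 1 table of 40460 Ensembl genes with log2 values between -2.94 and 20.62. Per the submitters' processing notes, the tools and build were hg19, TopHat2 2.0.11, DESeq2 and limma, listed without their roles. For the counter, annotation and transform, no name is given in the sources used here. The table holds no counts, so depth and detection limits are unknown, and differences of weakly expressed genes may be compressed. In every gene the mean of the 4 replicate A libraries equals that of the 7 B and C libraries (largest difference 7.2e-09), a step no source names and that the residual degrees of freedom do not count.

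Symbols were matched through a table of gene names to 30039 identifiers (74.2%). The 17945 genes that reached a log2 value of 3.32 (linear 10) in 2 or more libraries were tested. With limma 3.58.1 in R 4.3.3, 1 linear model with a mean per group took in all 11 libraries (7 residual degrees of freedom), and variances were moderated by empirical Bayes along a trend with mean level. Tests were two-sided, with Benjamini-Hochberg adjustment over all tested genes within each of 5 comparisons and a threshold of 0.05. The script was tested on simulated data. The 8 genes and the gene lists were chosen with earlier results of these data known. All 8 were described; further complement genes that were tested could be named, and up to 6 inducer or acute-phase genes with the smallest adjusted p in a comparison. Of the further complement genes, 2 count in the totals but are not reported here by name. Alternatives changed the filter, scaling, moderation, covariates and libraries.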

Additional observations from a re-analysis of the deposited data

Results flagged for a closer look

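The interaction test, which compares the EGF withdrawal difference with BRCA2 siRNA and with control siRNA, passed an adjusted p of 0.05 in limma for 5 genes described here. They were 1 of 6 tested genes from the 8, 2 of 16 further complement genes and 2 of 27 inducer or acute-phase genes. Of all tested genes 3.32% passed. In each of the 5 the withdrawal difference was smaller with BRCA2 siRNA. The interaction was -1.36 for C3, -1.50 for CLU, -1.58 for C9, -1.81 for SAA1 and -1.79 for SAA2. C9 reached the minimum for testing only through control siRNA libraries without EGF, the group its interaction rests on, so its call is no support, and SAA1 and SAA2 can share reads. None of the 5 passed in every fit that left out 1 library. Without control siRNA +EGF A or BRCA2 siRNA +EGF C, 0 of all tested genes passed for the interaction, so those misses are not particular to the 5. Groups of 2 or 3 libraries are too small for a test of single outlying libraries.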

How the results depend on the processing

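Among BRCA2, the complement genes and the inducer and acute-phase genes, no difference that passed the threshold changed sign under any alternative run. The differences of the cell type markers, KDR and TEK among them, were not followed through the alternatives. For EGF withdrawal with BRCA2 siRNA, the libraries of replicates B and C alone gave 0 further complement genes (2 in the report) and 1 inducer or acute-phase gene (4). CD59 (-0.53) also missed the threshold there. For withdrawal with control siRNA, further complement genes numbered 6 with the stricter minimum of 100 (fewer genes tested), 6 after quantile normalization and 4 with B and C alone (11), and inducers numbered 4 with B and C alone (13), and 4 to 20 when 1 library was left out. Without EGF, BRCA2 siRNA against control siRNA gave 0 of the 8 complement genes with B and C alone (4), and 1 to 4 when 1 library was left out. Further complement genes numbered 4 with the stricter minimum, 0 with B and C alone and 11 in a fit of only the groups compared (7), and 3 to 11 when 1 library was left out. Inducers numbered 0 with B and C alone, 14 with only the groups compared and 6 without the replicate B libraries with EGF (3), and 1 to 4 when 1 library was left out. That alternative was chosen after seeing the data. For the interaction, the 8 genes gave 2 calls after quantile normalization, 3 with a replicate block and 0 with B and C alone (1), and 0 to 3 when 1 library was left out. Further complement genes gave 1 with the stricter minimum, 1 after quantile normalization and 0 with B and C alone (2), and 0 to 3 when 1 library was left out. Inducers gave 1 with no filter, 1 with the stricter minimum, 1 without the trend and 0 with B and C alone (2), and 0 to 3 when 1 library was left out. For the interaction, the share of all genes in the fit that were called was 1.04% with no filter and 4.92% with the stricter minimum (3.32%). It was 2.09% without the trend, 4.15% after quantile normalization and 5.18% with a replicate block. The B and C fit has 7 libraries and 3 residual degrees of freedom. For the other changes the cause was not tested. Where 1 control library without EGF remained, it was assumed to vary like the other groups. In those fits the share of all tested genes called fell as well, so a miss there is not particular to these genes. For withdrawal with control siRNA the share was 57.3% with the stricter minimum and 45.5% after quantile normalization (50.8%). It was 53.9% without BRCA2 siRNA +EGF replicate B, where 20 inducers passed, and 40.4% without control siRNA +EGF replicate A, where 7 did. Between the siRNAs without EGF it was 27.2% with the stricter minimum and 37.8% with only the groups compared (20.5%). It was 28.6% without the replicate B libraries with EGF. Without control siRNA +EGF replicate C, where 11 further complement genes passed, the share was 26.6%. Without BRCA2 siRNA -EGF replicate A, where 3 passed, it was 9.26%. Replicate letters were not taken to pair the libraries in the main fit. Over 15 pairs of libraries with the same letter, correlations of deviations from the group means ran from -0.366 to 0.70, with 2 above 0.1. Those 2 were the siRNA pairs with EGF of letters B (0.695) and C (0.70), while that of letter A was at -0.118. Because the deposited A mean equals that of B and C in every gene, the A pairs are pushed towards negative values. The A pairs therefore cannot speak against pairing, and whether the letters pair the libraries stays open. With the replicate block CD55 passed for withdrawal with BRCA2 siRNA (-0.62) and control siRNA (-0.60), and C1R (-1.39) and C1S (-1.27) passed for the interaction.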
